A study of Drosophila melanogaster with 6 samples.

Results

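Genes of mitotic entry, the spindle and the kinetochore were followed in larval wing discs of *Drosophila melanogaster* that expressed RNAi against *Nup98-96*. The set held 35 genes, listed by name for their roles in cell division. All 35 were found among the 17559 genes of the count table, and all 35 were among the 7942 genes that passed the filter on low counts. They were read in 7 role groups, which were mitotic cyclins and entry kinases, the chromosomal passenger complex, spindle motors and poles, the central spindle, checkpoint and anaphase genes, kinetochore and centromere genes, and condensin.

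The RNA came from wing discs, the larval tissue that forms the adult wing, dissected from wandering larvae. The control group carried *UAS-white RNAi JF01540*, directed at an eye colour gene, and the other group carried *UAS-Nup98 RNAi HM05048*, with 3 libraries in each. Animals of both groups had *ap-Gal4* with *UAS-GFP*, 1 copy of *UAS-P35*, and *tub-Gal80TS*, so that both expressed P35, a baculovirus inhibitor of effector caspases. After 4 days at 18°C, where Gal80 holds Gal4 off, the larvae spent 72 h at 28°C, where Gal4 is active. Each library pooled 40 discs, and p-values here measure the spread between such pools. The *apterous* driver is active in the dorsal part of the disc, so every library also held ventral cells that expressed no RNAi. In whole discs, fewer cells of a type and less RNA per cell cannot be told apart. *Nup98-96* encodes a transcript from which a pair of nuclear pore proteins, Nup98 and Nup96, is made.

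A cell enters mitosis when Cdk1, bound to cyclin A or cyclin B, is freed of its inhibitory phosphates by a Cdc25 phosphatase, which in flies is String or Twine. Motor proteins then build the spindle, kinetochores tie the chromosomes to it, and a checkpoint holds back the anaphase-promoting complex until all chromosomes are attached, after which cyclins and securin are destroyed. Wing discs grow by such divisions in larval life, and *string* is the regulated step for entry into mitosis in many of their cells.

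The libraries held between 70342787 and 110330112 counts. In whole discs, the *Nup98-96* transcript was close to its control level under its own RNAi. It was at 316 to 335 CPM (counts scaled to library size by TMM normalization) in the controls and 302 to 317 CPM in *Nup98-96* RNAi. The ranges overlapped, and the log2 fold change was -0.07 (SE 0.04, adjusted p = 0.118 by edgeR's quasi-likelihood test). Reads from the RNAi hairpin itself could not be separated from those of the gene, and their part in this level was not tested. The same holds for the ventral cells without RNAi. The study reported lower Nup98 protein in its RNAi experiments, which RNA counts do not measure. The control target *w* was at 485 to 573 CPM under its own RNAi and at 861 to 1071 CPM in the other group. Markers of wing disc epithelium summed to 1035 to 1097 CPM in the controls and to 672 to 690 CPM in *Nup98-96* RNAi. Of 6 listed markers 5 were matched, and 4 of these, *vg*, *nub*, *Dll* and *pdm2*, were called lower. The other, *rn*, was slightly higher in every *Nup98-96* RNAi library (231 to 245 against 218 to 221 CPM, log2 fold change 0.12) and was not called. Vg, the protein made from *vg*, was reported by the study as reduced in the wing pouch under the knockdown. Whether the lower sum reflects less epithelium or lower expression of these marker genes was not tested. Summed markers of tracheal cells were higher in *Nup98-96* RNAi (1291 to 1415 against 751 to 1056 CPM, 3 of 4 markers matched), through *verm* and *serp*, while *trh* was called lower (80.4 to 87.8 against 44.3 to 48.9 CPM). Those of neurons and glia summed to 83.1 to 85.0 against 52.4 to 62.3 CPM, nearly all of it *elav*, and the glial marker *repo* was near 0 with overlapping groups. Summed markers of myoblasts were lower (491 to 526 against 544 to 621 CPM, 3 of 6 called lower). The hemocyte sum, mostly *Hml* and *Pxn*, overlapped (16.7 to 32.9 CPM in *Nup98-96* RNAi against 23.1 to 32.1 CPM in the controls). The scarce *eater* (0.475 to 1.10 against 1.27 to 2.22 CPM), *srp* and *NimC1* lay wholly below the controls. Of these, *eater* and *srp* passed the filter only through their level in the controls and *NimC1* did not pass it, so their values are given as a description. Fat body markers summed to 3482 CPM in control replicate 1 and to 21.0 to 85.6 CPM in the other 5 libraries. The part of these cell types in the results below was not tested.

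Most mitotic genes were nearly level between the groups. Of the 35, 32 (91.4%) had a fitted log2 fold change under 0.5 in size, against 5662 of the 7942 tested genes (71.3%). The genes called higher, at an adjusted p under 0.05 and a log2 fold change of at least 0.5, were *feo*, *twe* and *cid*. These 3 genes are 8.57% of the set, while 15.3% of all tested genes were called higher. No gene of the set was called lower by edgeR, against 11.2% of all tested genes, and none was by DESeq2, by limma-voom or by edgeR's test against a minimum fold. At an unadjusted p under 0.05, 11 genes of the set (31.4%) were lower, beside 34.3% of all tested genes.

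Small shifts were common in the set as in the rest of the genome. Without the minimum fold, 6 genes of the set (17.1%) were past the adjusted p in the higher direction and 10 (28.6%) in the lower direction, beside 33.3% and 32.5% of all tested genes. The 10 lower genes were *CycA*, *CycB*, *CycB3*, *Cdk1*, *borr*, *Klp3A*, *BubR1*, *Bub3*, *SMC2* and *Cap-D2*, and the 6 higher genes were *stg*, *twe*, *Klp61F*, *feo*, *thr* and *cid*. The 3 *Nup98-96* RNAi libraries lay wholly above the 3 controls for 7 genes (20.0%) and wholly below them for 12 (34.3%), and the groups overlapped for the other 16. Over all tested genes, these shares were 36.6% above and 36.2% below. The median log2 fold change of the set was -0.06, with quartiles of -0.14 and 0.08 and a range from -0.33 to 0.81. All tested genes had a median of 0.00 and quartiles of -0.24 and 0.29, so the set was spread over a narrower range. Without control replicate 1 the set's median was -0.01.

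**Figure D1:**
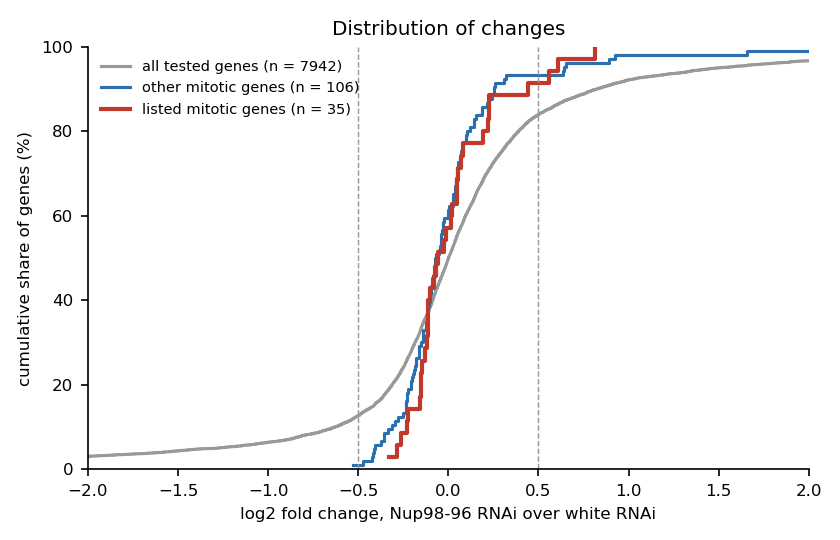
Cumulative share of genes in percent against the fitted log2 fold change, *Nup98-96* RNAi over control. Curves are for the 35 mitotic genes (red), 106 further mitotic, dREAM and E2F genes described at the end (blue) and all 7942 tested genes (grey). Dashed lines are at the minimum fold, and values beyond the axis are not drawn. The red curve climbs steeply around a median of -0.06, and 3 of its genes lie above 0.5.

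**Figure D2:**
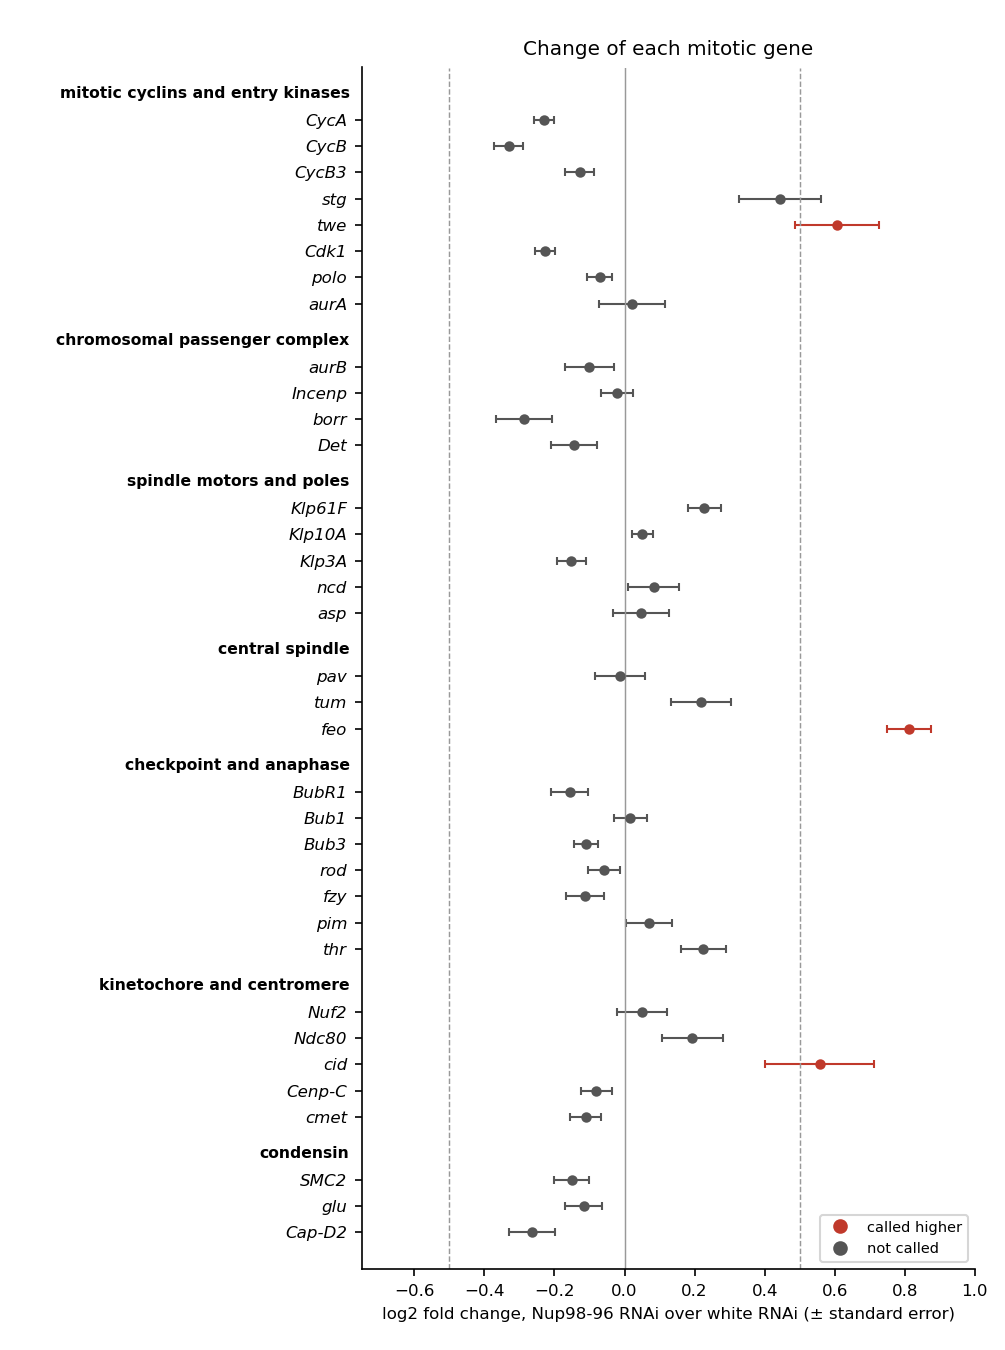
Fitted log2 fold change of each of the 35 mitotic genes by role group, *Nup98-96* RNAi minus control, with bars for 1 SE from edgeR's quasi-likelihood fit, called genes in red and dashed lines at the minimum fold. The point for *feo* at 0.81 stands apart from the rest, and the mitotic cyclins, *Cdk1* and the condensin genes lie below 0.

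Among the genes of mitotic entry, *CycA*, *CycB* and their kinase gene *Cdk1* were lower in *Nup98-96* RNAi, and both Cdc25 phosphatases were higher. *CycB*, which encodes the B-type cyclin that drives entry into mitosis, stood at 391, 382 and 358 CPM in the controls and at 293, 305 and 301 CPM in *Nup98-96* RNAi. All 3 *Nup98-96* RNAi libraries were below all 3 controls. Its mean fell by 20.5%, from 377 ± 17.3 to 299.8 ± 5.77 CPM (SD, n = 3 each), with a log2 fold change of -0.33 (SE 0.04). This was the most negative value of the 35 genes, at an adjusted p of 0.000453 by edgeR. *CycA* encodes the cyclin that flies need for entry into mitosis, and its levels were 300.4, 301 and 293 CPM against 252, 256 and 255 CPM. Here too the groups were apart, and the mean fell by 14.7% (log2 fold change -0.23, SE 0.03, adjusted p = 0.000491 by edgeR). *CycB3*, a further B-type cyclin, was at 109.7, 104 and 99.5 CPM against 94.1, 96.4 and 96.4 CPM. The groups did not overlap, though the lowest control was close to the highest *Nup98-96* RNAi libraries (log2 fold change -0.13, SE 0.04, adjusted p = 0.0304 by edgeR). It missed the adjusted p in 8 of 14 alternative settings (up to 0.162), among them upper-quartile and library-size scaling and each library left out except control replicate 3. *Cdk1*, the kinase that these cyclins activate, was at 140.2, 139 and 139.9 CPM in the controls and 119.6, 121 and 118 CPM in *Nup98-96* RNAi. Its replicates lay close together in each group, and the mean fell by 14.5% (log2 fold change -0.23, SE 0.03, adjusted p = 0.000424 by edgeR).

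The Cdc25 phosphatases, which activate Cdk1, moved the other way. *stg* encodes String, the phosphatase of somatic divisions, and lies on chromosome 3R from 29251826 to 29255800 in the BDGP6 assembly. It was at 174, 138 and 129 CPM in the controls and at 191, 191 and 219 CPM in *Nup98-96* RNAi. No control reached the lowest *Nup98-96* RNAi library, with control replicate 1 the nearest to it. The mean rose from 147 ± 23.6 to 200.3 ± 16.6 CPM, 1.36-fold (log2 fold change 0.44, SE 0.12, adjusted p = 0.0133 by edgeR), which is under the minimum fold. Without control replicate 1, the log2 fold change was 0.58 and *stg* passed both thresholds (adjusted p = 0.000239 by edgeR). With each library left out in turn, the log2 fold change of *stg* ranged from 0.36 to 0.58. The highest adjusted p of *stg* over 14 alternative settings of the test was 0.0498, just under the threshold. *twe* encodes Twine, the Cdc25 phosphatase of meiosis and the germline, on chromosome 2L from 16259414 to 16261877. It was at 6.07, 5.65 and 4.77 CPM in the controls and at 7.44, 8.76 and 8.90 CPM in *Nup98-96* RNAi, a low level in every library. All *Nup98-96* RNAi libraries were above all controls, and the mean rose 1.52-fold (log2 fold change 0.61, SE 0.12, adjusted p = 0.00373 by edgeR). Its exons overlap those of *EndoGI* on the opposite strand over 98 bases, 4.12% of its exon length, and reads were counted without strand. *EndoGI* rose as well, from 76.7 to 121 CPM (log2 fold change 0.65), and its part in the *twe* value was not tested. Markers of the germline summed to 22.2 to 25.2 CPM in the controls and to 10.1 to 14.8 CPM in *Nup98-96* RNAi, with 3 of 5 markers matched and *aub* making up most of the difference.

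The other entry kinases showed no such shift. *polo*, which encodes Polo kinase, was at 438, 428 and 413 CPM against 395, 409.7 and 413 CPM, and the groups overlapped (log2 fold change -0.07, adjusted p = 0.118 by edgeR). *aurA* encodes the Aurora kinase of the centrosomes, and its log2 fold change was 0.02 (adjusted p = 0.856 by edgeR). Its exons overlap those of *CG12213* on the opposite strand over 153 bases, 9.70% of its exon length. *CG12213* fell from 144 to 82.7 CPM (log2 fold change -0.80), and its part in the *aurA* value was not tested. Over the 8 genes of this group the median log2 fold change was -0.10, and -0.07 with upper-quartile scaling. Of the 8 genes, 2 were past the adjusted p in the higher direction and 4 in the lower. Among all tested genes, 33.3% were past it in the higher direction and 32.5% in the lower. Whether so small a group differs from these shares was not tested.

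**Figure D3:**
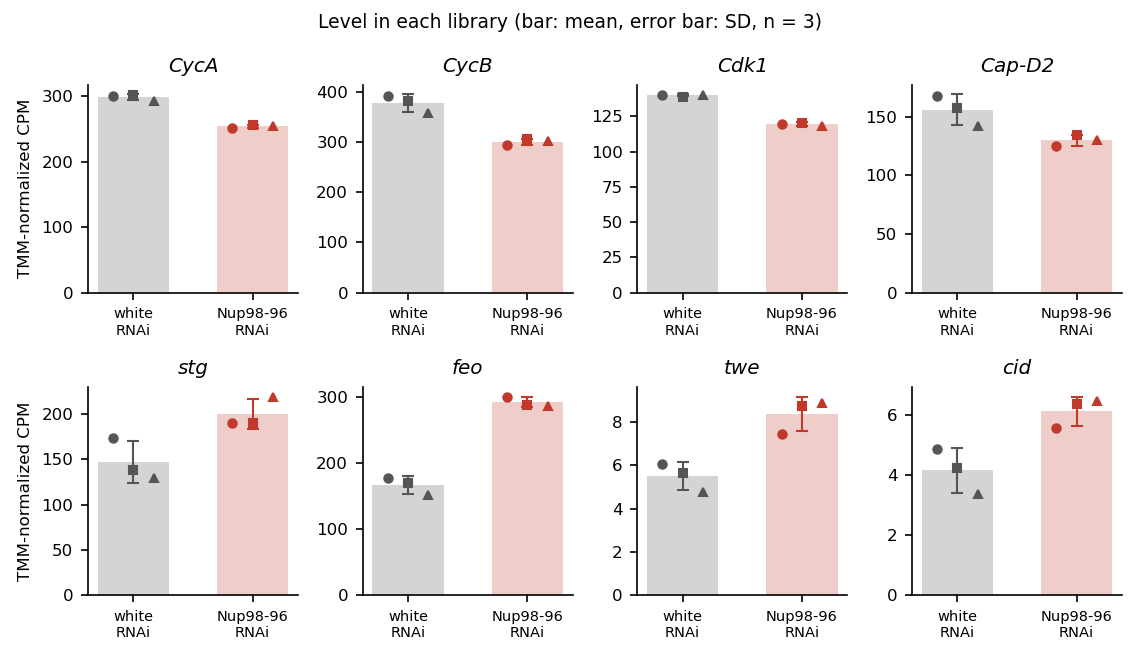
TMM-normalized CPM of 8 mitotic genes, with points for the libraries of each group (circle, square and triangle for replicates 1, 2 and 3), bars for the group mean and error bars for the SD of 3 libraries. *CycA*, *CycB*, *Cdk1* and *Cap-D2* are lower in all 3 *Nup98-96* RNAi libraries, whereas *stg*, *twe*, *feo* and *cid* are higher in all 3.

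The chromosomal passenger complex corrects faulty attachments at centromeres and later acts at the central spindle. All 4 of its genes had a log2 fold change below 0, as did 49.9% of all tested genes. Of the 4, *Incenp* changed sign with upper-quartile or library-size scaling. Past the adjusted p in the lower direction was 1 of the 4, beside 32.5% of all tested genes. Whether so small a group differs from these shares was not tested. *borr*, which encodes the subunit Borealin-related, was at 69.4, 70.8 and 59.9 CPM in the controls and 50.3, 55.5 and 58.2 CPM in *Nup98-96* RNAi. The groups did not overlap, with control replicate 3 close to the highest *Nup98-96* RNAi library. Its mean fell from 66.7 ± 5.95 to 54.7 ± 4.01 CPM (log2 fold change -0.29, SE 0.08, adjusted p = 0.0173 by edgeR), a result lost without control replicate 2 or *Nup98-96* RNAi replicate 1 (adjusted p up to 0.0627). *Incenp*, the scaffold of the complex, was at 238, 232 and 215 CPM against 222, 230.4 and 222 CPM, and all *Nup98-96* RNAi values lay within the control range (log2 fold change -0.02, adjusted p = 0.688 by edgeR). *aurB*, the kinase subunit, and *Det*, which encodes the Survivin-like subunit Deterin, had log2 fold changes of -0.10 and -0.14 with overlapping groups. The median of the 4 genes was -0.12, and -0.06 without control replicate 1.

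Spindle motors and pole proteins separate the poles and focus the microtubules. *Klp61F* encodes the kinesin-5 motor that pushes the poles apart, and it was the gene of this group with the highest log2 fold change. Its levels were 193, 177 and 175 CPM in the controls and 217, 209 and 212 CPM in *Nup98-96* RNAi. The lowest *Nup98-96* RNAi library was above the highest control, and the mean rose from 182 ± 9.99 to 213 ± 4.31 CPM (log2 fold change 0.23, SE 0.05, adjusted p = 0.00448 by edgeR). *Klp3A*, a kinesin of the central spindle and chromosomes, went the other way, with 139, 142 and 134 CPM against 127, 127 and 119 CPM. Its groups were also apart (log2 fold change -0.15, SE 0.04, adjusted p = 0.0155 by edgeR), but it missed the adjusted p in 4 of 14 alternatives (up to 0.0619), which were upper-quartile and library-size scaling and the fits without control replicate 2 or *Nup98-96* RNAi replicate 3. *Klp10A*, a kinesin that shortens microtubules, was higher in every *Nup98-96* RNAi library, but by 3.61% in the mean (log2 fold change 0.05, adjusted p = 0.177 by edgeR). The minus-end motor *ncd* and the pole protein *asp* had log2 fold changes of 0.08 and 0.05 with overlapping groups. The group's median log2 fold change was 0.05, but 0.14 without control replicate 1 and 0.02 without control replicate 3.

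The central spindle forms between the separating chromosomes and places the cleavage furrow. *feo* encodes Fascetto, the fly PRC1 protein that bundles antiparallel microtubules there, and lies on the X chromosome from 10852446 to 10854869. It was at 178, 170.4 and 151 CPM in the controls and at 301, 289 and 287 CPM in *Nup98-96* RNAi. The gap between the groups was far wider than the spread within either, with no *Nup98-96* RNAi library near any control. The mean rose from 167 ± 13.6 to 292 ± 7.45 CPM, 1.76-fold (log2 fold change 0.81, SE 0.06), at an adjusted p of 4.73e-05 by edgeR. Its partners in the same structure did not show that size of difference. *pav* encodes Pavarotti, the kinesin of the centralspindlin complex, and stood at 242, 219.6 and 197 CPM against 217, 220.0 and 216 CPM. All 3 *Nup98-96* RNAi values lay within the control range, with a log2 fold change of -0.01 (adjusted p = 0.889 by edgeR). *tum*, which encodes the other centralspindlin subunit, was at 152, 134 and 119 CPM against 151, 161 and 159 CPM. Control replicate 1 overlapped the other group (log2 fold change 0.22, adjusted p = 0.0602 by edgeR). *feo* has no annotated opposite-strand overlap, and it was called higher under every alternative tried.

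Checkpoint and anaphase genes shifted little. *thr*, which encodes a regulatory partner of separase, was at 46.9, 46.3 and 41.8 CPM in the controls and 48.8, 54.6 and 54.4 CPM in *Nup98-96* RNAi. The groups were narrowly apart, and the mean rose from 45.0 ± 2.78 to 52.6 ± 3.30 CPM (log2 fold change 0.22, SE 0.06, adjusted p = 0.0190 by edgeR), a result lost without *Nup98-96* RNAi replicate 2 or 3 (adjusted p up to 0.0825). *BubR1*, a component of the inhibitor that the checkpoint makes, was at 176, 168 and 154 CPM against 147, 147 and 152 CPM. Its mean fell from 166 ± 10.9 to 149 ± 2.79 CPM (log2 fold change -0.16, SE 0.05, adjusted p = 0.0337 by edgeR), and the groups did not overlap. *Bub3*, its binding partner, was at 148, 146 and 139 CPM against 132, 133 and 135 CPM, also without overlap (log2 fold change -0.11, adjusted p = 0.0276 by edgeR). Under the 14 alternatives *BubR1* missed the adjusted p in 8 (up to 0.134) and *Bub3* in 7 (up to 0.169). Upper-quartile and library-size scaling, and the fits without control replicate 2 or any 1 *Nup98-96* RNAi library, were among these for both genes, and the fit without control replicate 1 for *BubR1*. The checkpoint kinase gene *Bub1*, the kinetochore checkpoint gene *rod*, the gene of the anaphase-promoting complex activator *fzy* and the securin gene *pim* had log2 fold changes between -0.11 and 0.07, none past the adjusted p. The 7 genes had a median log2 fold change of -0.06, and of -0.01 without control replicate 1.

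Of the kinetochore and centromere genes, *cid* alone was past the adjusted p. *cid* encodes the centromeric histone H3 of flies and lies on chromosome 2R. It was at 4.88, 4.25 and 3.38 CPM in the controls and at 5.57, 6.37 and 6.47 CPM in *Nup98-96* RNAi, among the lowest levels of the set. No control reached the lowest *Nup98-96* RNAi library, and the mean rose 1.47-fold (log2 fold change 0.56, SE 0.16, adjusted p = 0.0166 by edgeR). The call was lost without control replicate 3 (log2 fold change 0.43, adjusted p = 0.0299), without *Nup98-96* RNAi replicate 2 (0.52, adjusted p = 0.0646) and without *Nup98-96* RNAi replicate 3 (0.52, adjusted p = 0.0554). *cmet* encodes a kinesin that links kinetochores to microtubules and had the lowest log2 fold change of this group, -0.11 (SE 0.04). Its levels were 200.3, 185 and 182 CPM against 175, 175 and 174 CPM, apart in every library but not past the adjusted p (0.0608 by edgeR). *Ndc80* and *Nuf2*, which encode partners in the complex that grips microtubules, had log2 fold changes of 0.19 and 0.05, and *Cenp-C*, the link from the centromere to the outer kinetochore, had -0.08. The group's median of 0.05 became -0.02 without control replicate 3, 0.01 without *Nup98-96* RNAi replicate 3 and 0.10 without control replicate 1.

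Condensin compacts the chromosomes for segregation, and the 3 condensin genes of this set were each lower in all *Nup98-96* RNAi libraries. Over all tested genes, 36.2% lay wholly below the controls in this way. *Cap-D2*, which encodes a regulatory subunit of condensin I, was at 168, 158 and 142 CPM in the controls and 125, 134 and 129.9 CPM in *Nup98-96* RNAi. Its mean fell from 156 ± 13.1 to 129.7 ± 4.52 CPM (log2 fold change -0.26, SE 0.07, adjusted p = 0.0100 by edgeR). *SMC2*, a core subunit, was at 171, 159.6 and 152 CPM against 142, 148 and 145 CPM (log2 fold change -0.15, SE 0.05, adjusted p = 0.0306 by edgeR). It missed the adjusted p in 7 of 14 alternatives (up to 0.134), among them upper-quartile and library-size scaling and the fits without control replicate 2 or any 1 *Nup98-96* RNAi library. *glu*, which encodes the other core subunit, SMC4, was at 195, 179 and 171 CPM against 164, 169 and 170.0 CPM. The highest *Nup98-96* RNAi library was just under the lowest control for *glu*, and its log2 fold change of -0.12 was not past the adjusted p (0.0945 by edgeR). The median log2 fold change of these 3 genes was -0.15. Of the condensin genes in the further lists described below, *Cap-G* (log2 fold change -0.21) lay wholly below the controls and *Cap-H2* (0.15) wholly above them. For *barr* (-0.10) and *Cap-D3* (0.05) the groups overlapped.

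**Figure D4:**
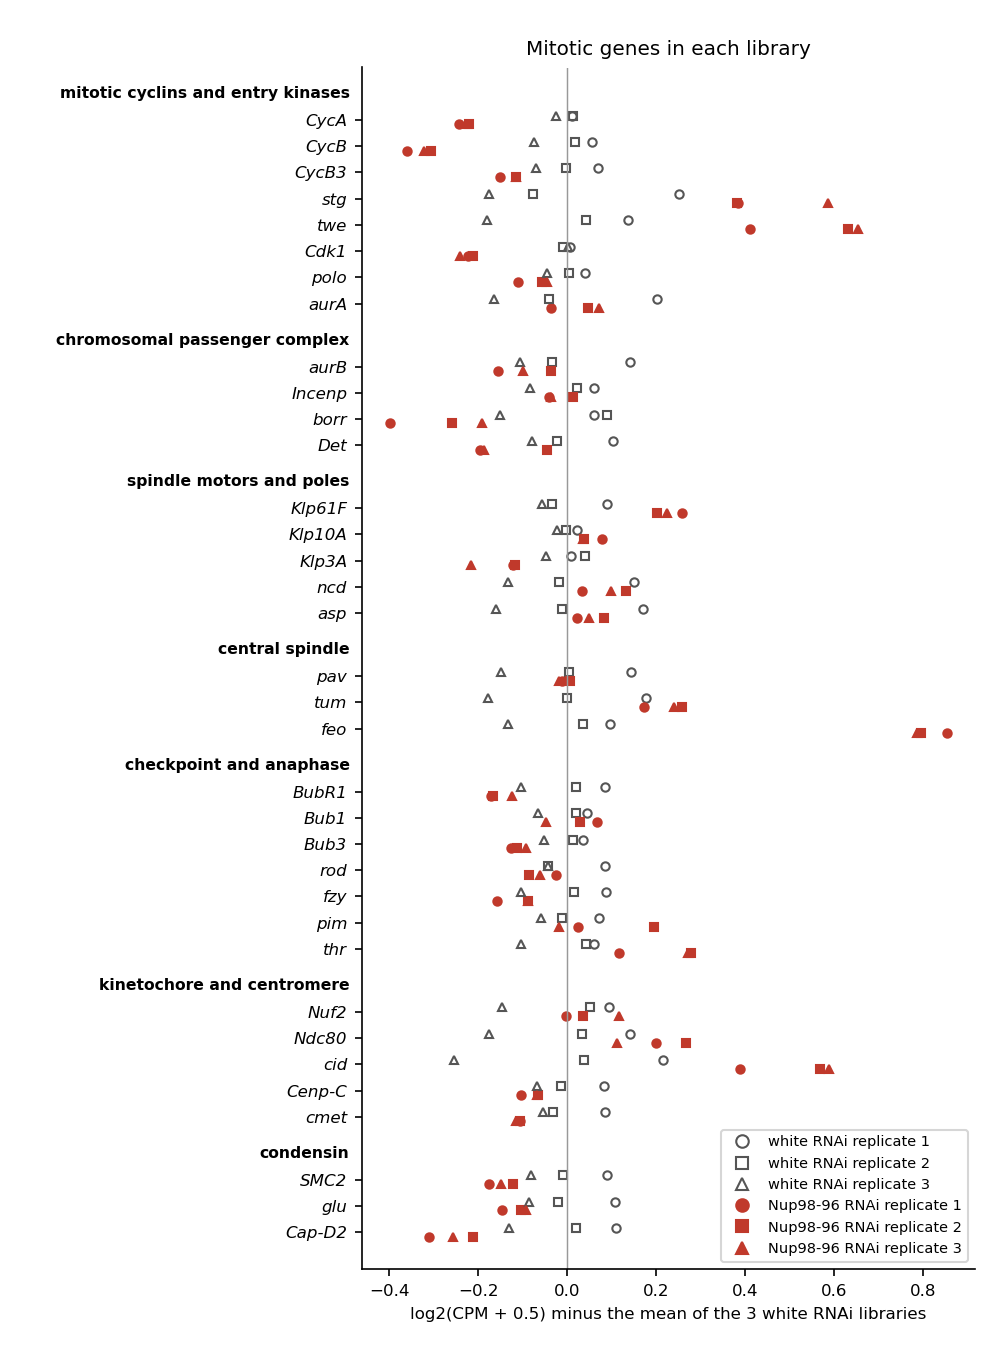
Level of each of the 35 mitotic genes in each of the 6 libraries by role group, as log2(CPM + 0.5) minus the gene's mean over the 3 control libraries. Control replicate 1 is above the control mean for all 35 genes, and for 29 genes the SD is larger among the controls than among the *Nup98-96* RNAi libraries.

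Of the 16 genes past the adjusted p, 8 were past it in each of 14 alternative settings of the test, not counting the test against a minimum fold. These were *CycA*, *CycB*, *Cdk1* and *Cap-D2* in the lower direction and *stg*, *twe*, *Klp61F* and *feo* in the higher direction. The other 8 missed it in 2 to 8 settings, *CycB3* and *BubR1* in 8 and *Bub3* and *SMC2* in 7.

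The control libraries differed from each other in these genes in a regular way. Control replicate 1 was the highest of the 3 controls for 32 of the 35 genes (91.4%) and control replicate 3 the lowest for 33 (94.3%), while these shares were 31.8% and 32.7% over all tested genes. The median log2 difference between these 2 controls was 0.18 over the set, with a range from 0.00 to 0.47, and was -0.02 over all tested genes. Control replicate 1 is also the library with the high fat body markers, and the part of that in the mitotic levels was not tested. The median SD of log2 levels was 0.0932 among the controls and 0.0365 among the *Nup98-96* RNAi libraries in the set, and 0.0716 and 0.0520 over all tested genes. For 5 genes of the set (14.3%), all *Nup98-96* RNAi values lay within the control range, against 6.02% of all tested genes. Leaving out control replicate 1 moved the count of genes past the adjusted p from 6 to 10 in the higher direction and from 10 to 8 in the lower direction. Without control replicate 3 the lower count was 15, and without control replicate 2 it was 4.

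Per kilobase of exon, the members covered a wide range of abundance. In the controls *polo* had 143 CPM per kb, *Cdk1* 129, *CycB* 124, *Bub3* 106 and *CycA* 102. At the other end, *Ndc80* had 10.9, *thr* 9.84, *cid* 4.11 and *twe* 2.31 CPM per kb. The highest was 61.9 times the lowest. *feo* went from 68.7 CPM per kb in the controls to 120.6 in *Nup98-96* RNAi, a level near that of *CycB* in the controls. The called genes *twe* and *cid* were thus the least abundant of the set by this measure, and *feo* was not.

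Further genes were read from 8 lists that leave the 35 genes out. Of these lists, 1 held the dREAM and E2F subunits, which control transcription, and the others held genes of the mitotic machinery. Of 109 genes matched, 106 were tested, and 98 of these (92.5%) had a log2 fold change under 0.5 in size. Called higher were 7 (6.60%) and called lower was 1 (0.943%), beside 15.3% and 11.2% of all tested genes. Of the 7, *APC7* passed the filter only through its level in *Nup98-96* RNAi, and without it the count was 6 of 105 (5.71%). Without the minimum fold, 17 (16.0%) were higher and 37 (34.9%) were lower, beside 33.3% and 32.5% of all tested genes. The lower share was thus near that of all tested genes, and the higher share was below it. The dREAM and E2F list supplied the 1 gene called lower and 7 of the 37 lower genes. The median log2 fold change of the 106 genes was -0.07. None of the 12 further condensin and cohesin genes was called in either direction by edgeR, DESeq2 or limma-voom, with 2 higher and 6 lower at an unadjusted p under 0.05, where 34.8% and 34.3% of all tested genes were.

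Called genes with a role in mitotic entry included *trbl*, which encodes the fly Tribbles protein that promotes the breakdown of String. *trbl* rose from 85.7 ± 1.96 to 270.0 ± 2.70 CPM (log2 fold change 1.66, adjusted p = 2.61e-07 by edgeR), so it was higher together with *stg*. *Cks30A*, which encodes a small partner of Cdk1, rose from 105.6 to 164 CPM (log2 fold change 0.64, adjusted p = 0.000717 by edgeR), while *Cdk1* itself was lower. These 2 were the called genes among 11 further entry regulators (18.2%), near the 15.3% of all tested genes that were called higher. In the test against a minimum fold, 1 of them was called.

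At the spindle and the cell cortex, *dia* and *cnn* were among the called genes. *dia* encodes the formin Diaphanous, needed for the cleavage furrow, and rose from 93.1 to 172 CPM (log2 fold change 0.89, adjusted p = 1.91e-06 by edgeR). *cnn* encodes the centrosome scaffold Centrosomin and rose from 100.4 to 158 CPM (log2 fold change 0.65, adjusted p = 8.39e-05 by edgeR). *dgt2*, which encodes a subunit of the augmin complex that seeds microtubules within the spindle, rose from 34.4 to 65.3 CPM (log2 fold change 0.92, adjusted p = 1.18e-05 by edgeR). *Nnf1b*, a kinetochore gene, rose from 4.01 to 6.22 CPM (log2 fold change 0.63, adjusted p = 0.00729 by edgeR), a call lost in the test against a minimum fold. *APC7*, a gene of the anaphase-promoting complex, was at 0.168, 0.279 and 0.245 CPM in the controls and at 4.18, 2.97 and 3.15 CPM in *Nup98-96* RNAi, given as a description because it was tested only through the group where it was high.

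The dREAM complex and E2F factors control transcription of many cell cycle genes. All 11 of their genes had a log2 fold change below 0, as did 49.9% of all tested genes. Of the 11, 7 (63.6%) were past the adjusted p in the lower direction, beside 32.5% of all tested genes. None was past it in the higher direction, beside 33.3%, and none was there at an unadjusted p under 0.05 either. The median of the 11 was -0.16. *E2f2*, which encodes the repressive E2F, was the gene of these lists called lower, from 61.7 to 42.7 CPM (log2 fold change -0.53, adjusted p = 6.08e-05 by edgeR). It was not called with upper-quartile scaling or in edgeR's test against a minimum fold, and its exons overlap those of *Mpp6* on the opposite strand.

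**Figure D5:**
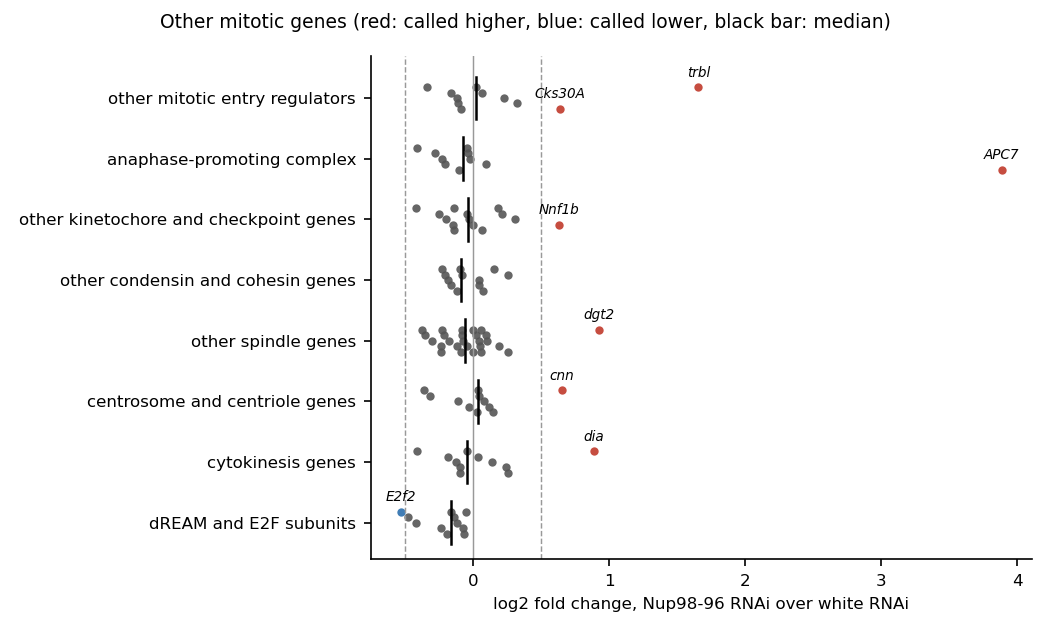
Fitted log2 fold change of each tested gene of the 8 further mitotic lists, *Nup98-96* RNAi minus control, 1 row of points per list with its median as a black bar, and called genes in red or blue. Most of the 106 genes lie within 0.5 of 0, all 11 genes of the dREAM and E2F list lie below 0, and *trbl* at 1.66 stands apart, as does *APC7*, which entered the test only through its level in *Nup98-96* RNAi.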

How the data were processed

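Poly(A)-selected RNA of wing discs was sequenced. Reads were aligned by the authors to the BDGP6 genome with Rsubread, and the deposited values are featureCounts counts per gene, made without strand although the libraries were directional, so overlapping genes share reads. The submitters' processing notes also name FastQC, limma and edgeR 3.13.4. A deposited table of the authors' own comparison (fold changes, t statistics and p-values) was not used.

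Symbols matched 17253 of 17559 gene identifiers in an Ensembl annotation of the BDGP6 assembly, which gave positions, exon lengths and overlaps. Counts were filtered by the Jaccard index over 100 thresholds from 1 to 200, loess span 0.3, which chose the upper end, 200, and left 7942 genes (45.2%). Groups were compared in edgeR 4.0.16 (R 4.3.3) with TMM scaling and the quasi-likelihood test, without a block. P-values were adjusted by Benjamini-Hochberg over all 7942 genes. Calls needed both an adjusted p under 0.05 and a log2 fold change of 0.5 or more in size. CPM are TMM-normalized, and SE is the size of the log2 fold change over the square root of F. The fit was tested on simulated data with 50 genes changed at each size. Past the adjusted p were 14.0% of genes with a true log2 change of 0.25 and 72.0% of those at 0.5. A gene not past it may thus still differ by a small amount. Far fewer genes were changed there than were called here, so these shares need not hold for the real libraries. Total counts were 70342787 to 110330112 per library, and no label names separate cultures beyond the pools, so p-values measure the spread between the libraries.

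Alternatives were DESeq2 1.42.0, limma-voom 3.58.1, a test against the minimum fold (glmTreat), RLE, upper-quartile and library-size scaling, filterByExpr, no filter, a replicate block, and each library left out. The members and lists were chosen with earlier results of these data known. Values by library are given for called genes, the mitotic cyclins, *stg*, *twe* and the highest and lowest gene of each role group; *Cdk1*, *polo*, *tum*, *Bub3* and *SMC2* were added after their values were seen. Of each further list the called genes are named. Listed symbols without a match were *Cdc26*, *SA*, *dmt*, *Top2* and *zip* and the markers *btl*, *vas*, *nos* and *ap*, which were not analysed here.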

Additional observations from a re-analysis of the deposited data

How the results depend on the processing

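*feo* was called higher in every alternative tried, and no mitotic gene of the set was called lower in any. The count called higher, 3, was 1 in edgeR's test against a minimum fold, where *twe* (adjusted p = 0.315) and *cid* (adjusted p = 0.614) were lost, and 2 to 4 with each library left out. The 6 genes past the adjusted p in the higher direction became 4 to 10 with each library left out, 10 without control replicate 1. The 10 in the lower direction became 5 with upper-quartile scaling, 5 with library size alone, 6 with the replicate block and 4 to 15 with each library left out. The genes called higher over the whole table, 1219, became 1873 with filterByExpr and 1950 without a filter, which test more genes. The set's median log2 fold change of -0.06 ranged from -0.08 to -0.01. The cause of the other differences was not tested.

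A total of 7 genes near 0 changed sign and 28 did not. *Incenp* (-0.02) was at 0.0120 with upper-quartile scaling, 0.0005 with library size alone and -0.0622 to 0.0085 with each library left out. *pav* (-0.01) was at 0.0205, 0.0089 and -0.0835 to 0.0627 under the same settings. *Bub1* (0.02) was at -0.0022 without a filter and -0.0157 to 0.0477 with each library left out. The others changed sign only with a library left out, with ranges of -0.0591 to 0.13 for *aurA*, -0.0309 to 0.14 for *asp*, -0.0052 to 0.11 for *pim* and -0.0224 to 0.10 for *Nuf2*.

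Replicate numbers did not pair the libraries. Deviations from the group means correlated at -0.167, 0.000 and 0.012 between libraries with the same number, and not every library correlated best with its own number. The block gave 1213 genes called higher and 863 called lower, beside 1219 and 890.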

Other observations

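Other genes of mitotic exit and cell cycle transcription were past the adjusted p but under the minimum fold, and those named here were chosen after their values were seen. *fzr*, which encodes the activator of the anaphase-promoting complex after mitosis, had a log2 fold change of -0.34. In the complex itself, *ida*, *Cdc16*, *mr* and *shtd* had log2 fold changes of -0.41, -0.28, -0.23 and -0.20, all lower in *Nup98-96* RNAi and past the adjusted p of edgeR's quasi-likelihood test. These 4 are 40.0% of the 10 tested genes of that list, and 32.5% of all tested genes were lower in this way. Another 5 were not past the adjusted p: *Cdc23* (0.10), *Cdc27* (-0.10), *APC4* (-0.04), *APC10* (-0.03) and *vih* (-0.04). *APC7*, described above, was higher. The dREAM subunit genes *mip130* and *mip120* had log2 fold changes of -0.48 and -0.42.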
